A study of Mus musculus with 2 samples.

Results

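The mitosis genes described here are a set of 50 genes out of the 26100 that both matrices hold, taken by symbol from a fixed list of cyclins, mitotic kinases, kinetochore and spindle proteins, and proteins of anaphase and cytokinesis. All 50 were found in both libraries. The series holds 1 droplet single-cell RNA library (10x Genomics 3′ kit) for each of 2 cultures, mouse embryonic fibroblasts (MEF) and induced myogenic progenitor cells (iMPC). Both cultures derive from embryonic fibroblasts of the genotype Tg:Pax7-nGFP/C57BL6;DBA2. The MEF were grown in MEF media, and the iMPC were made from such fibroblasts by MyoD together with F/R/C, a treatment the labels do not spell out, and kept in media with F/R/C. Each culture is 1 library with no replicate, so every interval here covers counting error only and no p-value was computed. The number of embryos or cultures behind each library is not given in the sources used here.

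At entry into mitosis the cyclin B and Cdk1 kinase becomes active, chromosomes condense and the spindle forms. Kinetochores then bind spindle microtubules under a checkpoint, and the anaphase-promoting complex with Cdc20 sets off chromosome separation and exit. The RNAs of most of these proteins are periodic, accumulating late in the cell cycle and running low in resting cells. Skeletal muscle precursors divide as myoblasts and leave the cell cycle as they differentiate into myocytes.

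MEF cells were all barcodes with at most 20% mitochondrial UMIs (unique molecular identifiers, 1 per captured RNA), and iMPC cells also had at least 8036 UMIs. This left 6043 MEF cells (median 18929 UMIs) and 9349 iMPC cells (median 20846 UMIs). Within iMPC, 5 groups were set by the UMIs of 4 genes that are no mitosis genes. Pax7-positive cells (2180) held at least 1 UMI of Pax7, the satellite cell factor, and no UMI of Myog, the differentiation factor. Double-positive cells (943) held at least 1 UMI of Pax7 and at least 3 of Myog. Myog-high cells (1182) held at least 5 Myog UMIs, no Pax7 and at most 1 UMI of Ckm, the muscle creatine kinase. Ckm-high cells (1037) held at least 5 Ckm UMIs, and Dcn-high cells (553) at least 5 UMIs of Dcn, a fibroblast proteoglycan. The groups overlapped in 289 cells, and 3753 cells belonged to none. The median depth differed between groups, from 18064 UMIs in Dcn-high to 42148 in Ckm-high cells, so shares of cells were taken after each cell was thinned to 8000 UMIs, which left out 660 MEF cells.

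The labels were compared with marker genes. Dcn is among the fibroblast markers and Ckm among the myocyte markers. The Dcn-high and Ckm-high groups were set by these genes, so their marker sums are in part fixed by the rule. All 7 fibroblast markers reached 10 CPM (counts per 1000000 UMIs) in MEF and in Dcn-high cells, with summed levels of 6191 and 5032 CPM, against 139 to 1339 CPM in the other iMPC groups. The 6 myocyte markers summed to 38679 CPM in Ckm-high, 14377 in Myog-high, 12768 in double-positive, 3451 in Dcn-high, 737 in Pax7-positive and 95.8 CPM in MEF cells, where Ckm was at 0. The 10 satellite cell markers include Pax7, which set 2 of the groups. They summed to 856 CPM in Pax7-positive, 579 in double-positive, 426 in Ckm-high, 410 in Dcn-high, 397 in Myog-high and 266 CPM in MEF cells. The 4 smooth muscle markers summed to 9883 CPM in MEF, above the fibroblast sum there, and to 402 to 927 CPM in the iMPC groups. Scrublet marked 211 of the 943 double-positive cells (22.4%) as doublets, 9.74% of Ckm-high and 9.76% of Dcn-high cells, and 2.66% of Pax7-positive cells. The kept cells of both libraries had 16 barcodes in common.

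Promoters of the set were searched for 2 short elements known from cell cycle genes, the CCAAT box, bound by NF-Y, and the CHR element, bound by the DREAM and MuvB complexes. Of the 50 members, 42 had a RefSeq start in the table used (GRCm38.p6). The bases just after the start were found in a GENCODE transcript of the gene for 32 of these 42. Among the windows printed below, they were not found for Mki67 and Gtse1. In the 250 bases before the start, read on both strands, CCAAT occurred in 32 of 42 members (76.2%) against 34.5% of 27025 genes. A CHR sequence, TTTGAA or TTTAAA, occurred in 20 members (47.6%) against 25.5% of all genes, and both elements in 17 members (40.5%) against 9.00%. At least 2 CCAAT boxes were present in 23 members (54.8%) against 10.5% of all genes, where CCAATTGG counts as 2 because it holds the box on each strand. An E2F sequence (TTTCCCGC, TTTGGCGC or TTTCGCGC) occurred in 2 members, Cdk1 and Kif15 (4.76% against 1.59%). These matches are descriptions of the letters and not evidence of binding. Windows of 5 genes, none of which overlaps an annotated exon, are printed, chosen for members whose levels are described below, with CCAAT and CHR matches in capitals on either strand. Top2a (chr11:99024190-99024439, minus strand) held 6 CCAAT boxes and 2 CHR sequences. Ccnb2 (chr9:70421555-70421804, minus strand) held 3 CCAAT boxes and 1 CHR sequence. Mki67 (chr7:135716380-135716629, minus strand) held 3 CCAAT boxes and 2 CHR sequences. Cks2 (chr13:51644982-51645231, plus strand) held 2 CCAAT boxes and no CHR sequence, and Gtse1 (chr15:85859457-85859706, plus strand) held 2 CCAAT boxes and 1 CHR sequence. Each runs 5′ to 3′ toward the start.
Top2a: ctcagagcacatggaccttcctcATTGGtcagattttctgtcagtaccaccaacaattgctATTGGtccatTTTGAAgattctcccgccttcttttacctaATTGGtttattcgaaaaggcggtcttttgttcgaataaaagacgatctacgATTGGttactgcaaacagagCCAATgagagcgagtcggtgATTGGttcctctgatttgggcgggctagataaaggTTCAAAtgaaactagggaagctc
Ccnb2: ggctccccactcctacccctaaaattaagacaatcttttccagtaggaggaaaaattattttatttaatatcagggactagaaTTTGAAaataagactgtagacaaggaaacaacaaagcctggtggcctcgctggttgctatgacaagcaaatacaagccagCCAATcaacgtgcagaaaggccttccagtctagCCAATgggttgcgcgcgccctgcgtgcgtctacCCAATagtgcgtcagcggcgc
Mki67: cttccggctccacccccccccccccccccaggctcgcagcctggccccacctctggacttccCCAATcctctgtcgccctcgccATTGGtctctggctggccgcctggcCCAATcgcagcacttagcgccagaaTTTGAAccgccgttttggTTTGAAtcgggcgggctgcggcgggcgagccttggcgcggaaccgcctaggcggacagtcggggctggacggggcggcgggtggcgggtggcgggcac
Cks2: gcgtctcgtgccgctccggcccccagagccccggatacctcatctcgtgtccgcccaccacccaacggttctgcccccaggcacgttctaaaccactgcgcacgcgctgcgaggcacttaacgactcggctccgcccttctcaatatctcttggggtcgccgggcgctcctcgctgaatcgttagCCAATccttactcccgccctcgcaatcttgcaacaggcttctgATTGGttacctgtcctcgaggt
Gtse1: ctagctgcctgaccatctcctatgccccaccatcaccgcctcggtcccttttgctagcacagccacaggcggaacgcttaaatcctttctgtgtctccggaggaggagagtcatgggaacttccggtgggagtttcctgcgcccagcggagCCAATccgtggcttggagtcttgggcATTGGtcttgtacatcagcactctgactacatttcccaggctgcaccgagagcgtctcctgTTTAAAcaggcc

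Summed over its 50 genes, the set was lowest in Ckm-high cells and highest in Pax7-positive cells. Its level was 429 CPM in Ckm-high cells (95% Poisson interval 423 to 435), 959 in MEF cells (954 to 965), 1569 in Dcn-high cells (1547 to 1591.5), 2068 in Myog-high cells (2052 to 2085), 3700.2 in double-positive cells (3679 to 3721) and 4598 CPM in Pax7-positive cells (4578 to 4618). All iMPC cells together had 2936 CPM. No neighbouring intervals in this order met, but they treat each UMI as independent and leave out the spread between cells. Cells with at least 20 mitosis UMIs after thinning held 68.4% of the mitosis UMIs of Dcn-high and 68.9% of those of MEF cells. The intervals are thus too narrow to rank the groups, and with 1 library each the spread between cultures is unknown. Barcodes of 200 to 600 UMIs in the iMPC library, which hold mostly free RNA, carried the set at 1352 CPM, or 0.581 mitosis UMIs in a barcode of their median depth, 430 UMIs.

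Each group held cells with few mitosis UMIs and cells with many, in different proportions. At least 20 mitosis UMIs in a cell thinned to 8000 were found in 47.4% of Pax7-positive cells (exact 95% binomial interval 45.3% to 49.5%), 50.1% of double-positive (46.8% to 53.3%), 25.9% of Myog-high (23.4% to 28.5%), 10.85% of Dcn-high (8.38% to 13.7%), 9.40% of MEF (8.63% to 10.2%) and 3.86% of Ckm-high cells (2.77% to 5.22%). The intervals of Pax7-positive and double-positive cells overlapped, as did those of Dcn-high and MEF cells. Without thinning the shares were 56.4%, 67.1%, 34.3%, 17.5%, 12.1% and 12.15% in the same order. The median cell held 16.5 mitosis UMIs among Pax7-positive, 20 among double-positive, 3 among Myog-high and Dcn-high, 2 among MEF and 1 among Ckm-high cells. Between 15 and 24 UMIs, near the threshold, lay 8.07% of Pax7-positive and 2.17% of MEF cells.

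**Figure D1:**
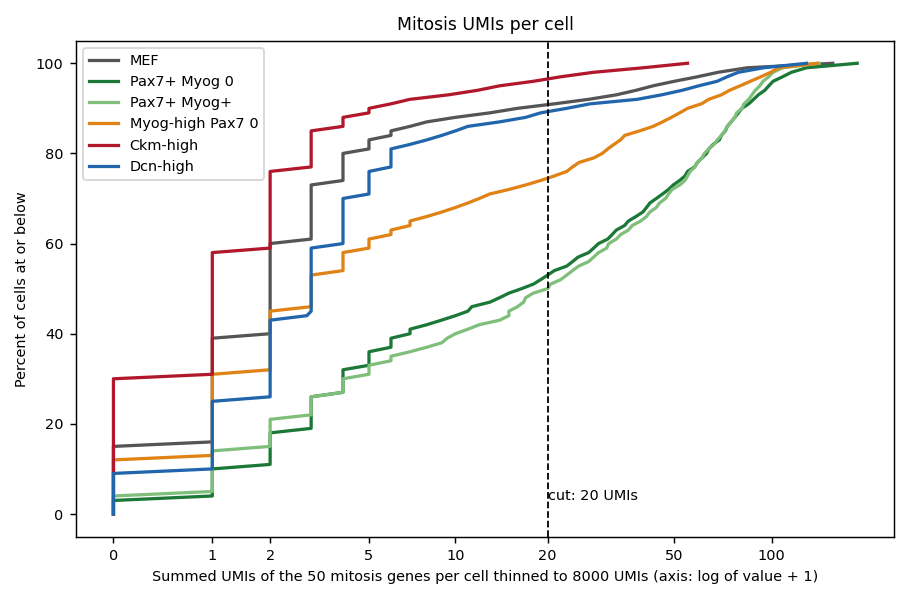
Percent of cells (vertical axis) at or below a given number of summed mitosis UMIs (horizontal axis, log of value + 1, cells thinned to 8000 UMIs), 1 line per group of cells. The Pax7-positive and double-positive lines pass the dashed line at 20 UMIs near the middle of the axis, the Myog-high line higher up and the MEF, Dcn-high and Ckm-high lines far higher.

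Among the regulators of mitotic entry, Cdk1, the kinase itself, had 44.4 CPM in MEF, 208 in Pax7-positive, 189 in double-positive, 105 in Myog-high, 22.2 in Ckm-high and 68.5 CPM in Dcn-high cells. Its partner Ccnb1, cyclin B1, had 18.3, 93.6, 86.2, 47.1, 8.10 and 28.6 CPM in the same groups. Ccnb2, cyclin B2, had 19.6 CPM in MEF, 93.4 in Pax7-positive and 8.10 CPM in Ckm-high cells. All 3 were thus highest in Pax7-positive cells and lowest in Ckm-high cells, with MEF between. Cyclin A2, Ccna2, had 16.8 CPM in MEF and 62.1 CPM in Pax7-positive cells. Plk1, the kinase that promotes entry and spindle assembly, had 10.9 CPM in MEF and 41.9 CPM in Pax7-positive cells, and Cdc25c, the phosphatase that activates Cdk1, 3.04 and 14.6 CPM. Cks2, a small Cdk1-binding subunit, kept a higher floor, with 115 CPM in MEF, 369 in Pax7-positive, 285 in double-positive, 166 in Myog-high, 49.9 in Ckm-high and 206 CPM in Dcn-high cells.

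The chromosomal passenger complex corrects kinetochore attachments. Birc5, its survivin subunit, had 47.5 CPM in MEF, 234 in Pax7-positive, 179 in double-positive, 98.3 in Myog-high, 19.5 in Ckm-high and 71.5 CPM in Dcn-high cells. Aurkb, its kinase, had 8.11 CPM in MEF and 62.8 in Pax7-positive cells, and Cdca8, the borealin subunit, 16.4 and 138 CPM. In these 3 genes MEF lay below every iMPC group but Ckm-high.

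At centromere and kinetochore, Cenpf, a large kinetochore protein, had 25.8 CPM in MEF, 209.5 in Pax7-positive, 163 in double-positive, 75.8 in Myog-high, 16.7 in Ckm-high and 61.3 CPM in Dcn-high cells. Cenpa, the centromeric histone H3 variant, had 28.8, 179, 143, 98.1, 16.8 and 58.8 CPM. Its chaperone Hjurp had 30.4 CPM in MEF, 115 in Pax7-positive, 40.5 in Myog-high and 16.5 CPM in Ckm-high cells. The Ndc80 complex genes Ndc80, Nuf2 and Spc25, which bind microtubules, had 5.73, 7.15 and 20.1 CPM in MEF against 23.2, 26.2 and 56.3 CPM in Pax7-positive cells. Cenpe, a kinetochore motor, had 17.4 and 95.8 CPM in those groups. The checkpoint kinases Bub1 and Ttk had 35.3 and 14.1 CPM in Pax7-positive cells and 2.34 and 0.966 CPM in Ckm-high cells.

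Of the chromosome proteins, Top2a, the topoisomerase that resolves sister DNA, had 36.6 CPM in MEF, 334 in Pax7-positive, 285 in double-positive, 152.5 in Myog-high, 23.7 in Ckm-high and 92.5 CPM in Dcn-high cells. Smc4, a condensin subunit, had 44.4, 192, 162, 91.5, 30.85 and 71.0 CPM. Mki67, the chromosome surface protein used as a proliferation marker, had 18.2, 139, 95.9, 44.8, 9.45 and 48.1 CPM. All 3 were highest in Pax7-positive and lowest in Ckm-high cells, with the smallest distance between those groups in Smc4. The chromokinesins Kif22 and Kif4 and the phosphatase-binding Cdca2 lay at 4.61 to 7.90 CPM in MEF and 24.8 to 35.4 CPM in Pax7-positive cells.

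The 14 spindle genes were the most uneven group. Kif15, a motor that holds the bipolar spindle, had 4.59 CPM in MEF, 48.5 in Pax7-positive, 35.7 in double-positive, 16.6 in Myog-high, 3.43 in Ckm-high and 12.7 CPM in Dcn-high cells. Kif11, the main bipolarity motor, had 7.14 CPM in MEF and 51.1 CPM in Pax7-positive cells. Nusap1, which bundles microtubules, had 7.26 and 66.3 CPM, and Hmmr, a spindle assembly factor, 15.1 and 116 CPM. Tpx2, which activates Aurora A, had 30.1 and 97.9 CPM. Gtse1, a microtubule plus-end protein, went the other way, with 23.2 CPM in MEF (22.3 to 24.1), 10.8 in Pax7-positive (9.86 to 11.8), 7.35 in double-positive, 4.45 in Myog-high, 1.07 in Ckm-high and 8.05 CPM in Dcn-high cells. MEF had the highest level of Gtse1 of all groups, which was so for no other member. Ckap2, a microtubule-stabilising protein, had 22.9 CPM in MEF, 42.0 in Pax7-positive, 17.1 in Myog-high and 16.8 CPM in Dcn-high cells. The other 7 spindle genes, Aurka, Tacc3, Kif2c, Dlgap5, Aspm, Ckap2l and Nek2, lay at 2.74 to 14.3 CPM in MEF and 11.5 to 46.2 CPM in Pax7-positive cells, and Aurka, the spindle pole kinase, was the only member with its highest level in double-positive cells (50.1 CPM).

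Among genes of anaphase and mitotic proteolysis, Ube2c, the ubiquitin-conjugating enzyme of the anaphase-promoting complex, had 85.6 CPM in MEF, 400.3 in Pax7-positive, 369 in double-positive, 224 in Myog-high, 46.0 in Ckm-high and 117 CPM in Dcn-high cells. Cdc20, the activator of that complex, had 26.4 CPM in MEF, 81.5 in Pax7-positive and 6.21 CPM in Ckm-high cells. Pttg1, securin, had 23.2, 61.6 and 6.56 CPM, and Cdca3 16.5, 118 and 8.65 CPM. Ube2c overlaps Tnnc2, the fast troponin C, on the other strand (chr2:164769898-164778822 against chr2:164777161-164779967). In cells with under 10 mitosis UMIs, Ube2c was at 8.92 CPM in MEF, 10.5 in Dcn-high, 19.1 in Ckm-high, 41.04 in Myog-high, 43.1 in double-positive and 44.9 CPM in Pax7-positive cells. Tnnc2 was there at 0.159, 337, 8274, 2821, 3140 and 192 CPM in the same order. The part of Tnnc2 in the counts of Ube2c was not tested. Ccna2, Cdc20, Cdc25c, Cdca8, Kif20a, Kif4, Nusap1, Prc1 and Tacc3 also overlap a protein-coding gene on the other strand (Exosc9, Elovl1, Gm3550, 9930104L06Rik, Cdc23, Pdzd11, Oip5, Rccd1 and Tmem129), and their counts are uncertain to that extent.

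For the midzone and cytokinesis, Prc1, the bundler of antiparallel microtubules, had 22.0 CPM in MEF, 194 in Pax7-positive, 139 in double-positive, 67.4 in Myog-high, 15.4 in Ckm-high and 62.3 CPM in Dcn-high cells. Racgap1 and Kif23, which form centralspindlin, had 13.1 and 8.14 CPM in MEF and 59.8 and 40.5 CPM in Pax7-positive cells. Anln, the contractile ring scaffold, had 20.4 CPM in MEF and 50.5 CPM in Pax7-positive cells, and Ect2, the exchange factor for RhoA, 5.06 and 23.4 CPM. The midzone motors Kif20a and Kif20b had 10.4 and 8.36 CPM in MEF and 27.0 and 37.6 CPM in Pax7-positive cells. All 7 genes of this role were highest in Pax7-positive cells and lowest in Ckm-high cells.

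**Figure D2:**
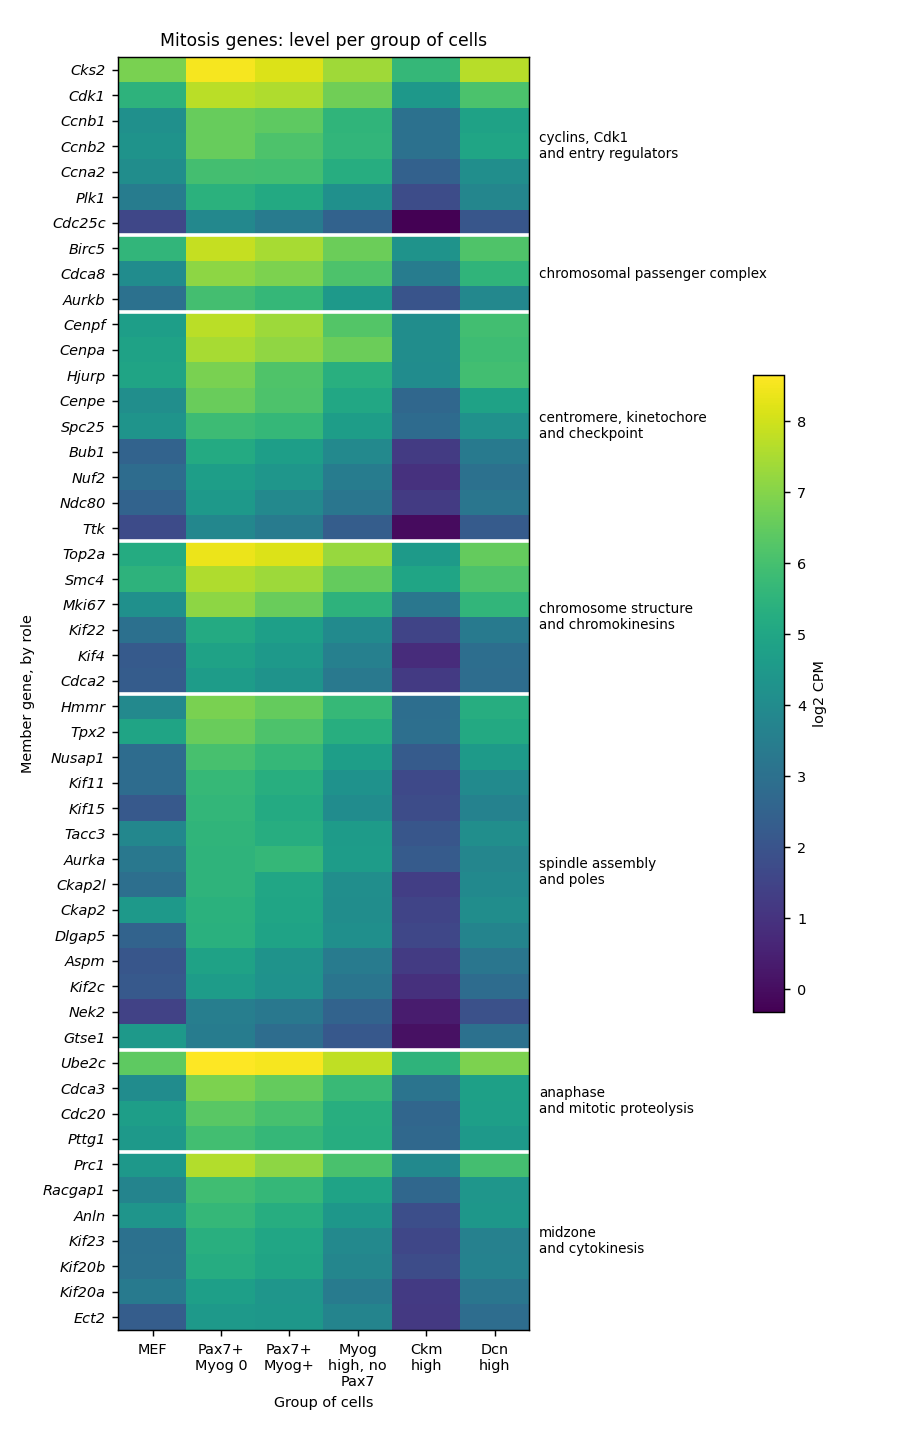
Level of each of the 50 mitosis genes (rows, by role, italic symbols) in the MEF cells and 5 iMPC groups (columns), as log2 CPM of the summed UMIs. Of the 50 rows 48 are brightest under Pax7-positive cells and all are darkest under Ckm-high cells; Gtse1 is brightest under MEF at 23.2 CPM and Aurka under double-positive cells.

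The comparison of the 2 cultures asks how far the level of the set differs between the fibroblasts and the reprogrammed culture. In all iMPC cells against MEF cells the summed level was 3.06-fold higher, a log2 ratio of 1.61 (95% interval 1.60 to 1.62). Of the 50 genes, 43 were at least 2-fold higher in iMPC and 1 at least 2-fold lower, against 14.2% of 9649 genes that averaged at least 5 CPM being higher and 20.7% lower. The median ratio was 1.62 over the members and -0.16 over all genes tested. The genes with the largest ratios were Kif15 (log2 2.67, 2.54 to 2.80), Top2a (2.53, 2.49 to 2.58) and Nusap1 (2.50, 2.39 to 2.60). The smallest belonged to Gtse1 (-1.77, -1.86 to -1.68), Ckap2 (0.20, 0.13 to 0.27) and Kif20a (0.68, 0.59 to 0.78). By role, all 7 entry genes, all 3 passenger genes and all 6 chromosome genes were at least 2-fold higher, as were 8 of 9 kinetochore, 12 of 14 spindle, 5 of 7 cytokinesis and 2 of 4 proteolysis genes.

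Pax7-positive cells against the same MEF cells gave a log2 ratio of 2.26 for the sum (2.25 to 2.27). Here 48 members were at least 2-fold higher and 1 lower, where 14.3% of 9589 genes were higher and 18.6% lower. Kif15 was 10.6-fold, Nusap1 9.13-fold and Top2a 9.12-fold higher. Gtse1 was again lower (log2 -1.10), Ckap2 was 1.84-fold higher and Anln 2.48-fold higher. Myog-high cells against MEF gave 1.11, with 29 members at least 2-fold higher and 1, Gtse1, lower (log2 -2.38), where 14.2% of 9463 genes were higher and 27.6% lower. Of the members, 47 averaged at least 5 CPM there. These comparisons share their MEF cells with the one above.

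Levels within the cells over the threshold are given as a description, since those cells were chosen by the summed UMIs of the same genes, here and in the values by Myog and Ckm below. Cells with at least 20 mitosis UMIs held 68.9% of the mitosis UMIs of thinned MEF cells and 88.9% of those of iMPC. Within them the set stood at 6429 CPM in 506 MEF cells and 7191 CPM in 3331 iMPC cells. For single genes in these cells, 35 of 50 were within 1.5-fold between iMPC and MEF, with a median log2 ratio of 0.04. Kif15 (log2 0.99), Top2a (0.94), Cdca8 (0.93) and Prc1 (0.88) were higher in iMPC. Gtse1 (-1.71), Kif20a (-0.93), Ckap2 (-0.90) and Cdc20 (-0.75) were higher in MEF. In MEF cells with at least 20 mitosis UMIs Cdc20 stood at 223 CPM, against 132 CPM in the matching iMPC cells.

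**Figure D3:**
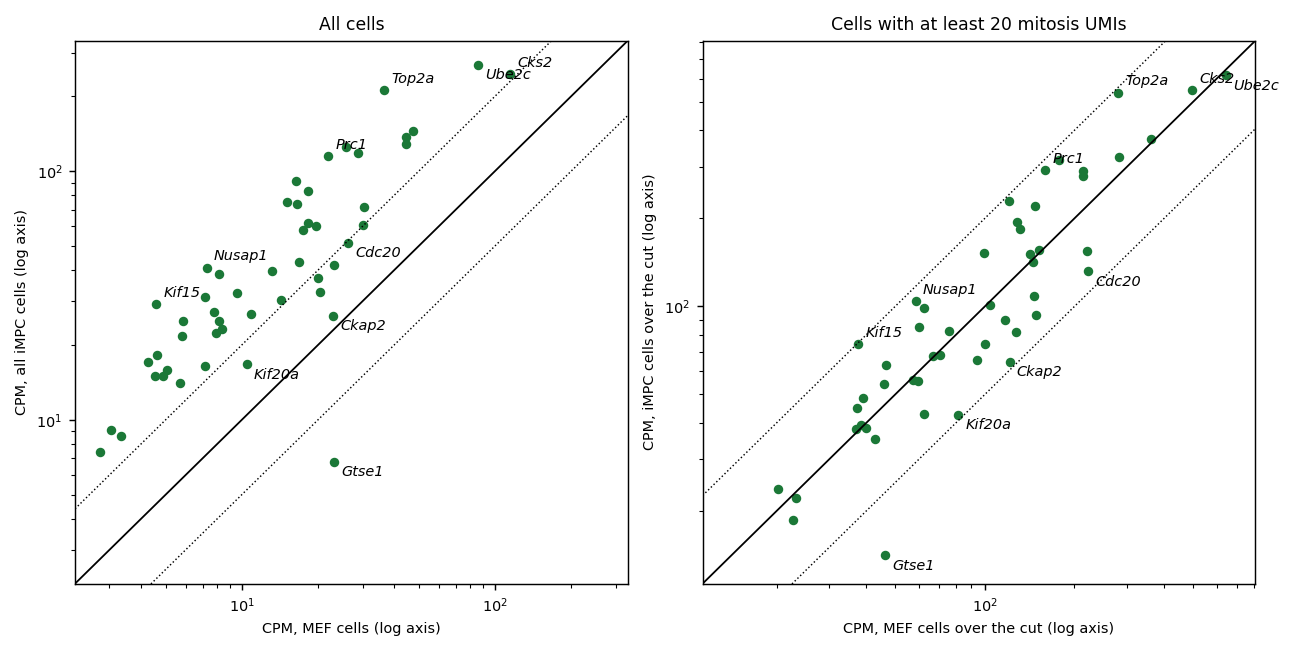
CPM of each mitosis gene in MEF (horizontal log axis) against iMPC (vertical log axis), in all cells (left) and in cells with at least 20 mitosis UMIs (right), 1 point per gene. The solid line marks equal levels and dotted lines 2-fold differences. On the left 43 points lie above the upper dotted line, and on the right most move near the solid line with Gtse1 below the lower dotted line.

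Gtse1 also stood apart within MEF. In the 4709 MEF cells with under 10 mitosis UMIs it was at 20.4 CPM, against 46.2 CPM in those with at least 20. For Mki67 the same values were 0.637 and 147 CPM. In iMPC, Gtse1 was at 3.07 and 14.1 CPM. A Gtse1 UMI was found in 15.9% of thinned MEF cells and 5.06% of iMPC cells, the opposite order to Top2a, at 9.72% of MEF and 39.3% of iMPC cells. Other members kept a level in cells with few mitosis UMIs: Cks2 stood there at 66.8 CPM in MEF and 75.5 CPM in iMPC, Smc4 at 22.5 and 32.5 CPM, and Hjurp at 19.5 and 29.4 CPM. The median member was at 1.35 CPM in such MEF cells and 2.21 CPM in such iMPC cells.

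Along the myogenic steps the set was lower in Myog-high than in Pax7-positive cells. The sum was 2.22-fold higher in Pax7-positive cells (log2 1.15, 1.14 to 1.17), and 38 of 50 members were at least 2-fold higher and 0 lower, where 16.2% of 9152 genes were higher and 7.64% lower. The median of all genes tested was 0.21, and with that median set to 0 the count was 27, where 12.5% of genes were higher and 9.62% lower. Mki67 (log2 1.64), Kif15 (1.55) and Cenpe (1.54) had the largest ratios, and Pttg1 (0.69), Ccna2 (0.69) and Ect2 (0.81) the smallest. In cells with at least 20 mitosis UMIs, 48 of 50 members were within 1.5-fold between these groups. The exceptions were Hjurp (169 CPM in Pax7-positive and 100.5 CPM in Myog-high cells) and Kif15 (81.9 and 51.5 CPM).

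The share of cells over 20 mitosis UMIs was lower at each step of Myog UMIs than at the one before, and above 0 at all of them. In thinned iMPC cells it was 43.0% at 0 Myog UMIs (4894 cells), 37.4% at 1 to 2, 26.2% at 3 to 5, 23.8% at 6 to 10, 20.1% at 11 to 20 and 12.1% from 21 UMIs on (413 cells, 9.12% to 15.6%). The intervals of the middle steps overlapped. The summed level went from 3475 to 1109 CPM. Over the same steps Cdkn1c, the Cdk inhibitor p57, went from 232 to 5801 CPM and Cdkn1a, p21, from 470 to 1515 CPM.

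Cells with Pax7 had higher shares than cells without it. The share was 30.3% at 0 Pax7 UMIs, 47.8% at 1, 51.5% at 2 and 46.8% from 3 UMIs on, the last 3 with overlapping intervals. For Dcn it was 37.9% at 0 UMIs, 18.8% at 1 to 2, 7.89% at 3 to 5 and 7.14% from 6 on. For Ckm it was 40.7% at 0 UMIs, 17.0% at 1 to 2 and 2.48% at 3 to 5. At 6 to 10 Ckm UMIs it was 0 of 164 cells, which allows a share of up to 1.83% by the limit of 3 counts and 2.22% by the exact interval, and 2 of 43 cells from 11 UMIs on.

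**Figure D4:**
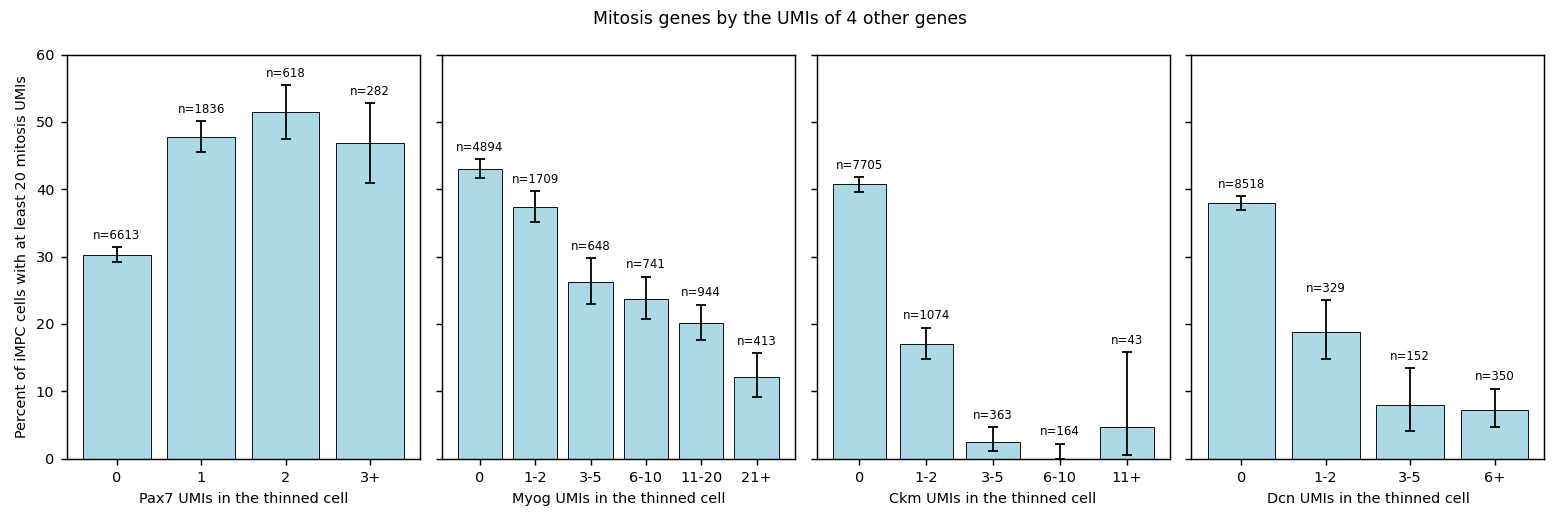
Percent of thinned iMPC cells with at least 20 mitosis UMIs (vertical axis, from 0) by the number of UMIs of Pax7, Myog, Ckm and Dcn in the same thinned cell (horizontal axes, 1 panel each). Bars are shares, error bars exact 95% binomial intervals and n the number of cells. The bars descend along Myog from 43.0% to 12.1% and along Ckm from 40.7% to 0 of 164 cells at 6 to 10 UMIs.

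Ckm-high cells had the least of every member. The sum was 4.82-fold higher in Myog-high than in Ckm-high cells (log2 2.27, 2.25 to 2.29), and all 50 members were at least 2-fold higher, where 9.22% of 8486 genes were higher and 4.74% lower; 46 members passed the filter of 5 CPM on average. With the median ratio of all genes, 0.16, set to 0, 6.46% of genes were higher and 6.73% lower, and 50 of 50 members were higher. Cdc25c (log2 2.82), Ccna2 (2.81) and Hmmr (2.77) had the largest ratios and Hjurp (1.29), Smc4 (1.57) and Cks2 (1.74) the smallest. Of the 40 Ckm-high cells with at least 20 mitosis UMIs, 29 (72.5%) were marked as doublets, and their median depth was 58131.5 UMIs against 41701 in the other Ckm-high cells. Without marked doublets the ratio was 3.12, the level in Ckm-high cells 233 CPM and the share over the threshold 1.18% (11 of 936 cells), and without cells of more than 1 group the ratio was 2.97. In all 40 cells over the threshold, doublets included, the set stood at 4012.5 CPM, below the 6429 to 7463 CPM of the other groups, with a median of 17.5 members detected.

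Dcn-high cells, the fibroblast-like cells of the iMPC culture, overlapped MEF in the interval of their share of cells over the threshold and lay far below Pax7-positive cells. The sum was 2.93-fold higher in Pax7-positive cells (log2 1.55, 1.53 to 1.57). Of the members 47 were at least 2-fold higher and 0 lower, where 6.61% of 9495 genes were higher and 10.5% lower. Cdca3 (log2 2.13), Aurkb (2.12) and Kif15 (1.93) had the largest ratios, and Gtse1 (0.43), Cks2 (0.84) and Hjurp (0.91) the smallest. Against MEF the sum was 1.64-fold higher in Dcn-high cells (log2 0.71), with 13 members at least 2-fold higher and 1 lower, where 12.4% of 9674 genes were higher and 12.6% lower. Of the members, 47 averaged at least 5 CPM there. The 1 lower gene was Gtse1 (log2 -1.53), and Ckap2 stood at -0.44. Of the 60 Dcn-high cells over the threshold 19 (31.7%) were marked as doublets, with 110 of the 553 Dcn-high cells also in the Pax7-positive group. Without doublets the ratio to MEF was 0.53, the ratio of Pax7-positive to Dcn-high cells 1.72 and the share over the threshold 8.22%.

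Cells that held Pax7 and Myog together had the set at nearly the Pax7-positive level. The summed ratio to Pax7-positive cells was -0.31 (-0.32 to -0.30) on the log2 scale, and 0 members were 2-fold apart in either direction, where 5.86% of 9252 genes were higher and 6.39% lower. Hjurp (-0.66) and Ndc80 (-0.63) had the lowest ratios and Aurka the highest (0.12). The direction of the sum depended on the scaling: when CPM was computed cell by cell and averaged the ratio was 0.01. Leaving out cells of more than 1 group, a change of cells and not of scaling, gave -0.01, so almost none of the difference remained. Of the double-positive cells 145 (15.4%) were also Ckm-high, and their part in the difference was not tested. Against Myog-high cells the sum was 1.79-fold higher in double-positive cells, with 12 members at least 2-fold higher and 0 lower, where 2.82% of 8864 genes were higher and 0.203% lower. As 22.4% of double-positive cells were marked as doublets, the share over the threshold was also taken without them, and it was 49.3% (361 of 732 cells).

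The median number of members with a UMI was 2 in all thinned MEF cells and 11 in all Pax7-positive cells. In cells over the threshold it was 24 in MEF and 26 in Pax7-positive cells, a description only, since these cells were chosen by the same UMIs. Over 9349 thinned iMPC cells, Pearson's r of a member with the sum of the other 49 had a median of 0.51, given as a description since all cells share 1 library. Birc5 (0.80), Top2a (0.79), Ube2c (0.77), Cks2 (0.72) and Cdk1 (0.72) were highest. Gtse1 (0.17), Nek2 (0.28), Ttk (0.30), Cdc25c (0.31) and Ndc80 (0.36) were lowest, all at 6.79 to 14.1 CPM in iMPC. Gtse1 was also lowest over 5383 MEF cells (0.10), where Ube2c (0.73) and Birc5 (0.73) were highest.

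Among genes outside the set, those most like its sum over iMPC cells were Hmgb2 (r = 0.78), Ube2s (0.73), Stmn1 (0.71), H2afz (0.70) and Hmgb1 (0.70), followed by Smc2, Pclaf, Cks1b, Ptma and Arl6ip1 (0.69 to 0.64). Hmgb2, a chromatin protein of dividing cells, had 74.4 CPM in MEF, 639 in Pax7-positive, 403 in Myog-high and 158 CPM in Ckm-high cells. The lowest coefficients belonged to genes of the contractile apparatus, Myl1 (-0.47), Acta1 (-0.47) and Tnni1 (-0.46). Over MEF cells, Pclaf (0.74), Hmgb2 (0.69) and Stmn1 (0.62) were highest.

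Replication genes, 45 genes of S phase, were set beside the mitosis genes in the same thinned cells, with at least 15 UMIs taken as over the threshold for them. Cells over both thresholds made up 29.3% of Pax7-positive, 27.0% of double-positive, 11.5% of Myog-high, 5.16% of MEF, 3.62% of Dcn-high and 0.482% of Ckm-high cells. Cells over the mitosis threshold alone made up 18.1%, 23.0%, 14.4%, 4.24%, 7.23% and 3.38% in that order. Some of the cells over the mitosis threshold were not over that for replication genes. These were 38.2% among Pax7-positive, 46.0% among double-positive, 45.1% among MEF and 55.6% among Myog-high cells. They were 66.7% among the 60 Dcn-high and 87.5% among the 40 Ckm-high cells over the mitosis threshold. Of those 60 and 40 cells, 19 and 29 were marked as doublets, and the shares were not taken without them. Members known to peak in late G2 or mitosis (13, such as Ccnb1 and Cenpe) were set against those that accumulate earlier (12, such as Ccna2 and Kif11). Their ratio of UMIs was 0.909 in MEF, 0.952 in Pax7-positive, 0.900 in double-positive, 0.918 in Myog-high, 0.958 in Dcn-high and 0.792 in Ckm-high cells (0.761 to 0.825). In thinned cells over the mitosis threshold the order was another, with 1.07 in MEF (1.03 to 1.11) and 1.07 in Dcn-high cells (0.968 to 1.18). The ratio there was 0.940 in Pax7-positive (0.918 to 0.961), 0.923 in double-positive (0.892 to 0.955), 0.911 in Myog-high (0.871 to 0.952) and 1.0103 in Ckm-high cells (0.856 to 1.19). In Pax7-positive cells it was 1.37 in cells over the mitosis threshold alone and 0.656 in cells over both.

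**Figure D5:**
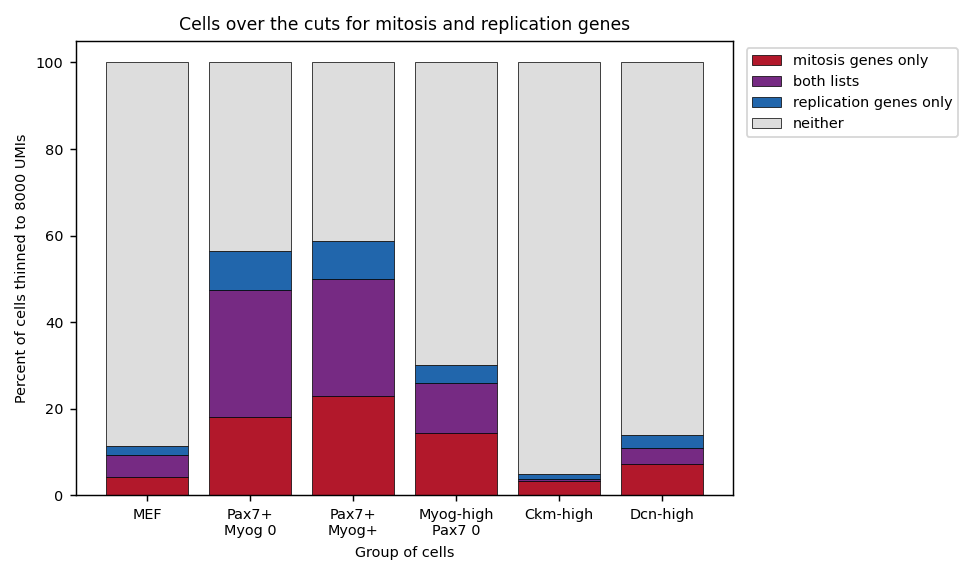
Percent of thinned cells (vertical axis) in each group (horizontal axis) over the threshold for mitosis genes only (20 UMIs), replication genes only (15 UMIs), both or neither, as stacked bars. Pax7-positive and double-positive cells have the tallest coloured parts, and in Ckm-high cells 95.1% are over neither.

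Other genes of the same process, formed a list of 69. At least 2-fold higher were 50 of 69 in iMPC against MEF, 60 in Pax7-positive against MEF, 49 in Pax7-positive against Myog-high, 58 in Myog-high against Ckm-high and 58 in Pax7-positive against Dcn-high cells. Over all genes tested, 14.2%, 14.3%, 16.2%, 9.22% and 6.61% were higher in these comparisons. Those shares cover genes averaging at least 5 CPM, which 56, 63, 67, 44 and 66 of the 69 did. Without that filter, as the 69 were counted, the shares were 20.9%, 27.4%, 23.9%, 19.0% and 7.41%. The median log2 ratios of the 69 were 1.52, 2.12, 1.23, 2.06 and 1.63. The log2 ratios of their sum were smaller, at 0.90, 1.46, 0.99, 1.49 and 1.17. For the 50 members those of the sum were 1.61, 2.26, 1.15, 2.27 and 1.55. Among the more abundant of the 69, Cks1b had 153 CPM in MEF and 168 CPM in iMPC. Zwint had 138 CPM in MEF, 126 in Pax7-positive and 195 CPM in Dcn-high cells. Spc24, a kinetochore subunit, had 12.1 CPM in MEF and 103 CPM in Pax7-positive cells, and Incenp, the passenger scaffold, 11.7 and 54.6 CPM. Psrc1, a spindle protein, and Cenpt, a kinetochore protein, were at least 2-fold lower in iMPC, with 81.6 and 18.3 CPM in MEF and 38.7 and 8.69 CPM in iMPC. Mad1l1, a checkpoint protein, was higher in Ckm-high (66.9 CPM) and Myog-high (36.2 CPM) than in Pax7-positive cells (9.40 CPM). In a list of 18 Cdk inhibitors, D cyclins and other genes of cell cycle exit, 7 were at least 2-fold higher and 3 lower in iMPC than in MEF, where 14.2% of all genes tested were higher and 20.7% lower. Of the 18, 17 averaged at least 5 CPM. Cdkn1c had 152 CPM in MEF, 229 in Pax7-positive, 3252 in Myog-high and 1863 CPM in Ckm-high cells, and Rb1, the retinoblastoma protein, 9.41, 9.00, 94.0 and 69.8 CPM. Cdkn2a, which encodes the p16 and p19ARF inhibitors, had 1027 CPM in MEF, 813 in Pax7-positive, 335 in Myog-high and 1238 CPM in Dcn-high cells.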

How the data were processed

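RNA of single cells from 1 MEF and 1 iMPC library was counted. The authors deposited raw UMI counts per gene and barcode as 10x matrices, made with Cell Ranger 4 per the file headers. The submitters' processing notes name Cell Ranger 4.0, Seurat 3.2.3 and the build GRCm38.p6, without saying at which step each was used. The annotation release and whether counting used strand are not given in the sources used here, so reads of a member and of a gene on the other strand may not be told apart. The deposited MEF matrix lists 6113 barcodes and the iMPC matrix 6794880, so barcodes had been selected in the MEF file only, by a rule not given in the sources used here. One treatment protocol is attached to both samples, whereas the MEF treatment label names MEF media and was the one followed.

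From these counts, genes in both matrices were kept (24 listed for MEF alone were dropped). Before the drop, totals were 118541302 UMIs in the MEF matrix, 248014 of them in the dropped genes, and 282903287 in the iMPC matrix. The iMPC threshold of 8036 UMIs is 10% of the 99th percentile of the 10000 largest barcodes. Doublets were scored with Scrublet (scanpy 1.11.5) and kept in the main values: 475 iMPC cells passed its threshold. Its threshold marked only 3 MEF cells, so the 292 MEF cells with the highest scores were marked instead, at an assumed rate of 0.8% per 1000 cells; whether the MEF file holds few doublets was not tested. Levels are CPM, summed UMIs per 1000000, not scaled by gene length, since 3′ counting does not follow length. Fold changes are ratios of CPM with exact conditional 95% intervals. Shares have exact Clopper-Pearson intervals after thinning without replacement to 8000 UMIs (seed 1). As there is 1 library per condition, no test was made, and counts of members at least 2-fold apart stand beside the same share over genes averaging at least 5 CPM. The ratio, interval and thinning steps were tested on simulated data.

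The text names the 10 members highest in Pax7-positive cells, the 3 largest and 3 smallest ratios per comparison among members with at least 20 UMIs, the 5 most and least correlated members and the 10 most similar other genes; further members illustrate the roles and were chosen after their values were seen, as were the other genes named from the lists. The members, groups and lists were chosen with earlier results of these data known. Alternatives changed the cell threshold, mitochondrial filter, doublets, scaling, free RNA, overlapping groups, thinning depth, UMI threshold and members. Promoters are from RefSeq, with exons from GENCODE on the same assembly. The promoter source held no start for Aurkb, Ccna2, Cdc25c, Cdca2, Dlgap5, Kif20a, Smc4 and Tpx2. Analyses used Python 3.11.15, numpy 2.4.6, scipy 1.17.1, pandas 2.3.3 and matplotlib 3.10.9.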

Additional observations from a re-analysis of the deposited data

Results flagged for a closer look

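Barcodes that enter none of the main comparisons also carried the mitosis genes, above the limit that a count of 0 allows. Those from 5000 UMIs up to the threshold entered an alternative with a lower threshold. The profile of those of 200 to 600 UMIs was the free RNA subtracted in another. The 48846 iMPC barcodes of 200 to 600 UMIs had a summed level of 1352 CPM (1336 to 1367). The 494 iMPC barcodes from 5000 UMIs up to the threshold had 1393 CPM (1352.5 to 1435), and the 191 iMPC barcodes over the threshold with over 20% mitochondrial UMIs had 776 CPM (747 to 807). The 70 MEF barcodes with over 20% mitochondrial UMIs had 1332.5 CPM (1185.5 to 1493), above the 959 CPM of the kept MEF cells.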

How the results depend on the processing

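The log2 ratios of the summed level kept their direction under each alternative except double-positive over Pax7-positive, which turned from -0.31 to 0.0145 with CPM averaged over cells. The values that moved by more than their counting interval were as follows, and the cause was not tested. With at least 12000 UMIs per iMPC cell, the ratios were 1.64 for iMPC over MEF, 2.32 for Pax7-positive over MEF, 1.20 for Pax7-positive over Myog-high, -0.37 for double-positive over Pax7-positive and 0.77 for Dcn-high over MEF. With at most 10% mitochondrial UMIs, the ratios were 1.63 for iMPC over MEF, 2.25 for Pax7-positive over MEF, 1.12 for Pax7-positive over Myog-high and -0.30 for double-positive over Pax7-positive. Without marked doublets, the ratios were 1.17 for Pax7-positive over Myog-high, 3.12 for Myog-high over Ckm-high, 1.72 for Pax7-positive over Dcn-high, -0.19 for double-positive over Pax7-positive and 0.53 for Dcn-high over MEF. With CPM computed cell by cell and averaged, the ratios were 1.75 for iMPC over MEF, 2.18 for Pax7-positive over MEF, 0.95 for Pax7-positive over Myog-high, 2.42 for Myog-high over Ckm-high, 1.72 for Pax7-positive over Dcn-high, 0.0145 for double-positive over Pax7-positive and 0.46 for Dcn-high over MEF. With totals free of mitochondrial and ribosomal protein genes, the ratios were 1.77 for iMPC over MEF, 2.45 for Pax7-positive over MEF, 1.17 for Pax7-positive over Myog-high, 2.37 for Myog-high over Ckm-high, 1.66 for Pax7-positive over Dcn-high, -0.35 for double-positive over Pax7-positive and 0.79 for Dcn-high over MEF. With the free RNA profile subtracted, the ratios were 1.63 for iMPC over MEF, 2.28 for Pax7-positive over MEF, 1.17 for Pax7-positive over Myog-high, 2.31 for Myog-high over Ckm-high and -0.32 for double-positive over Pax7-positive. Without cells of more than 1 group, the ratios were 2.30 for Pax7-positive over MEF, 1.19 for Pax7-positive over Myog-high, 2.97 for Myog-high over Ckm-high, 1.81 for Pax7-positive over Dcn-high, -0.0119 for double-positive over Pax7-positive and 0.49 for Dcn-high over MEF. With groups set after thinning, the ratios were 2.32 for Pax7-positive over MEF, 1.46 for Pax7-positive over Myog-high, 2.99 for Myog-high over Ckm-high, 1.91 for Pax7-positive over Dcn-high and 0.41 for Dcn-high over MEF. Without the 3 members with most UMIs, the ratios were 2.27 for Pax7-positive over MEF, 1.20 for Pax7-positive over Myog-high, 2.30 for Myog-high over Ckm-high, 1.60 for Pax7-positive over Dcn-high, -0.34 for double-positive over Pax7-positive and 0.68 for Dcn-high over MEF. With the iMPC threshold applied to MEF, the ratios were 1.60 for iMPC over MEF and 2.25 for Pax7-positive over MEF. Without Ube2c, the ratios were 1.19 for Pax7-positive over Myog-high, -0.33 for double-positive over Pax7-positive and 0.73 for Dcn-high over MEF.

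The shares of cells over the mitosis threshold moved with its definition and with depth. Without thinning, the shares were 12.1% for MEF, 44.6% for iMPC, 56.4% for Pax7-positive, 67.1% for double-positive, 34.3% for Myog-high, 12.2% for Ckm-high and 17.5% for Dcn-high. Thinned to 5000 UMIs, the shares were 7.08% for MEF, 28.6% for iMPC, 38.3% for Pax7-positive, 40.5% for double-positive, 19.1% for Myog-high and 2.03% for Ckm-high. With a threshold of 10 mitosis UMIs, the shares were 12.5% for MEF, 43.4% for iMPC, 56.1% for Pax7-positive, 61% for double-positive, 32.7% for Myog-high, 7.04% for Ckm-high and 15.9% for Dcn-high. With a threshold of 40 mitosis UMIs, the shares were 5.67% for MEF, 24.1% for iMPC, 33% for Pax7-positive, 35% for double-positive, 14.9% for Myog-high, 1.35% for Ckm-high and 7.78% for Dcn-high. Without marked doublets, the shares were 34.6% for iMPC, 1.18% for Ckm-high and 8.22% for Dcn-high. Without cells of more than 1 group, the shares were 56.7% for double-positive, 1.7% for Ckm-high and 7.77% for Dcn-high. With groups set after thinning, the shares were 49.8% for Pax7-positive, 43.3% for double-positive, 22.7% for Myog-high, 0.709% for Ckm-high and 6.98% for Dcn-high.

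The counts of members at least 2-fold apart stayed within 1.5 times under each alternative run for them. Of the ratios of single genes, 280 alternative values kept within the interval, 92 moved and 0 reversed. The UMI threshold on MEF, the ratios without Ube2c, and all alternatives for double-positive over Pax7-positive and Dcn-high over MEF were chosen after seeing the data. No paired analysis was possible because each culture is 1 library. Members at a few CPM rest on few UMIs in the smaller groups, and the spread between cultures is unknown.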

Other observations

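Inside the Pax7-positive group, cells over and under the mitosis threshold differed in other genes. Dcn was at 18.2 CPM in the 1033 cells over the threshold and 109.5 CPM in the 1147 under it, and Col1a1, a collagen chain, at 31.4 and 62.6 CPM. Pax7 itself was at 113 and 121 CPM, and Cdkn1a at 344 and 498 CPM. In the Myog-high group, Myh3, the embryonic myosin, was at 269 CPM in the 306 cells over the threshold and 1195 CPM in the 876 under it, with Myog at 1396 and 1649 CPM. The median depth was 22743 UMIs over and 15937 under the threshold among Pax7-positive cells, and 24127.5 and 22210 UMIs among Myog-high cells. The part of depth in these values was not tested.

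Over MEF cells, the genes with the lowest correlation with the mitosis sum were Hist1h2bc (-0.35), a histone H2B gene, Ctsd (-0.30), a lysosomal protease, and Cdkn2a (-0.30).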
